A study of Mus musculus with 32 samples.

Results

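The 8 livers labelled HC, from female ApoE3Leiden mice on a high-cholesterol diet without a drug, were described by themselves. Of 10620 named genes on the array, the members were the 8181 (77%) with a detection value over 0.95 on at least 4 of the 8 HC arrays. The detection value is the array software's measure of how often a probe exceeds the negative control beads. In all there were 32 arrays (Illumina mouse bead arrays), with RNA of 1 liver on each. Beside the 8 HC livers there were 8 livers each of HC+RSV (the same diet with rosuvastatin, a statin), HC+EZE (with ezetimibe, an inhibitor of intestinal cholesterol uptake) and HC+RSV+EZE (with both). All 32 mice carried the ApoE3Leiden background, in which a variant of human apolipoprotein E is expressed beside the mouse gene, and all ate the high-cholesterol diet, so the HC livers are not livers of untreated wild-type mice. Age, the make-up of the diet, drug doses and the promoter of the transgene are not given in the sources used here, and whether the mouse apolipoprotein probes also read transgene RNA was not tested.

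The liver is made up mostly of hepatocytes, which secrete the greater part of the proteins of blood plasma, package lipids into lipoproteins, make bile acids from cholesterol and take up and conjugate foreign compounds. Kupffer cells (resident macrophages), sinusoidal endothelial cells, stellate cells and bile duct cells make up the rest. In mice some hepatic genes differ strongly between the sexes, and others follow feeding and the time of day.

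Probe intensity over the HC arrays averaged between 144.5 and 247.6 per array, and 10964 to 12615 probes per array were detected (mean 11928 ± 699, SD, n = 8). The arrays lay on 6 chips, of which 2 held 2 HC livers and 4 held 1. HC livers 1 and 7 were on chip 4, livers 2 and 8 on chip 5, and livers 5, 6, 3 and 4 on chips 1, 2, 3 and 6. Livers 1 and 8 stood apart from the other 6: their mean correlation with the other HC arrays over the detected genes was 0.932 and 0.946, against 0.953 to 0.966 in the others, while liver 1 and liver 8 correlated at 0.975 with each other. For several genes and lists that these 2 livers set apart, the spread is also given without them.

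Markers of the labelled tissue were present. All 10 hepatocyte markers were detected, with a median log2 intensity of 12.27, as were all 9 markers of sinusoidal endothelium and all 8 measured markers of stellate cells and fibroblasts. Of 9 measured Kupffer cell and macrophage markers 7 were detected, among them Clec4f (9.89 ± 0.48, SD, n = 8) and Vsig4 (10.88 ± 0.64); Marco and Cd163 were not. Markers of T and NK cells lay near the floor of the array, at 4.63 to 4.97. None of the measured markers of fat (Lep) or intestine (Vil1) was detected, and none of skeletal muscle had a named probe. Cela1, a pancreatic elastase that served as the single measured marker of pancreas, was at 7.22 ± 0.89, with its lowest values, 5.36 and 6.39, in livers 1 and 8. In whole liver, fewer cells of a type and less RNA per cell cannot be told apart.

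The brightest genes were those of secreted plasma proteins. The first 20 by mean log2 intensity spanned 14.03 to 14.75. Serpina1b, Serpina1d and Serpina1c encode alpha-1-antitrypsin-like protease inhibitors. Trf (transferrin) carries iron, Ttr carries thyroid hormone and the retinol carrier, and Hpx and Hp bind heme and hemoglobin. Apoa1, Apoa2, Apoc1 and Apoc3 are apolipoproteins. Kng1 (kininogen), Ahsg (fetuin-A) and Ambp (the precursor of bikunin and alpha-1-microglobulin) are also secreted. The 6 not secreted into plasma as their main function were Cyp2e1 (a cytochrome P450 that oxidises ethanol and small solvents), Gpx1 (glutathione peroxidase), Fth1 (ferritin heavy chain), Scd1 (stearoyl-CoA desaturase), Rpl23 (a ribosomal protein) and Atp5b (a subunit of ATP synthase). A probe's brightness depends on its sequence as well as on its transcript, so these are ranks of probes, not of transcript numbers. The probe for albumin (Alb) was only at rank 409, at 10.82 ± 0.58. Livers 1 and 8 were its highest 2, and without them its SD was 0.30.

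The promoters of the brightest gene and of its close relative are shown because the Serpina1 genes took 3 of the 20 first ranks and share sequence. They run from 250 bases before to 50 bases after the start of the gene, from RefSeq (GRCm38.p6), 5′ to 3′ on the gene's strand, with capitals marking the letters CCAAT on either strand. Serpina1b lies at chr12:103738140-103738439 (minus strand) and Serpina1d at chr12:103773584-103773883 (minus strand).
Serpina1b: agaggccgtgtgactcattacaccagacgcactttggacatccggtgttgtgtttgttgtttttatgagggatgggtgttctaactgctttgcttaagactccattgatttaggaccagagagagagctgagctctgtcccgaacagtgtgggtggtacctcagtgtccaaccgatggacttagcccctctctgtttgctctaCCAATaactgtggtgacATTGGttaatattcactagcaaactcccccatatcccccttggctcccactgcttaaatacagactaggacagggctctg
Serpina1d: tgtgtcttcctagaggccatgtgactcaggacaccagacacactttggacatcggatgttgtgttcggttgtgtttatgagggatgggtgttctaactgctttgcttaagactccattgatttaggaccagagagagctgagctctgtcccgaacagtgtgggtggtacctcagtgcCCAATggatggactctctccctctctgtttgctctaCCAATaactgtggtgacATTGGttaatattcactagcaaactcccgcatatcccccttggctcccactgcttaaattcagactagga
The 2 windows shared 188 of 290 aligned bases (64.8%), and those of Serpina1b and Serpina1c 209 of 299 (69.9%); probes for these paralogs may read one another's transcripts. CCAAT was found in 10 of the 13 brightest genes with a promoter in the table, against 2626 of 6697 detected genes (39.2%) and 10248 of all 27025 promoters (37.9%). TATAAA, searched in the 50 bases before the start, was found in 1 of the 13 (Cyp2e1), against 3.78% of all promoters.

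Most of the 20 brightest genes differed little between livers by the probe used. Serpina1b had values of 14.72, 14.87, 14.72, 14.87, 14.57, 14.64, 14.72 and 14.87 in livers 1 to 8 (14.75 ± 0.12, SD, n = 8), and the highest liver exceeded the lowest 1.24-fold. Trf varied least of the 20, between 14.53 and 14.83 (SD 0.09). Where these genes had other detected probes, those probes varied more. The other probe of Serpina1b had an SD of 0.17, that of Ahsg 0.40 and those of Rpl23 0.60 to 0.66. They correlated with the probe used at -0.03, -0.15 and -0.43 to -0.30. For Hpx, Kng1, Fth1, Hp and Apoc1 the other probes correlated at 0.52 to 0.82. Quantile normalization gives every array the same set of values, so at this end of the scale the spread reflects how probes change places; saturation of the scanner was not tested, and the highest raw intensity of an HC array was 34821.8.

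A few bright genes separated livers 1 and 8 from the rest. Apoc3, which slows the clearance of triglyceride-rich lipoproteins, had values of 13.67, 14.46, 14.87, 14.69, 14.87, 14.78, 14.83 and 13.23 in livers 1 to 8, so that livers 1 and 8 lay below the other 6; the SD was 0.63 with them and 0.16 without. Apoc1, an apolipoprotein of the same gene cluster as Apoe, showed the same pattern, with 13.76 and 13.52 in livers 1 and 8 and 14.27 to 14.67 in the others. Scd1, which makes monounsaturated fatty acids, was highest in these livers, at 14.78 and 14.57, against 13.72 to 14.14 in the other 6.

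The 20 brightest genes held 11.4% ± 1.3 of the summed intensity of detected genes (SD, n = 8; range 9.6 to 12.9%), and the 100 brightest held 30.5% ± 2.5 (26.3 to 33.2%). Of the 100 brightest genes in HC, 97 were also among the 100 brightest of the HC+RSV livers, 95 among those of HC+EZE and 89 among those of HC+RSV+EZE.

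**Figure D1:**
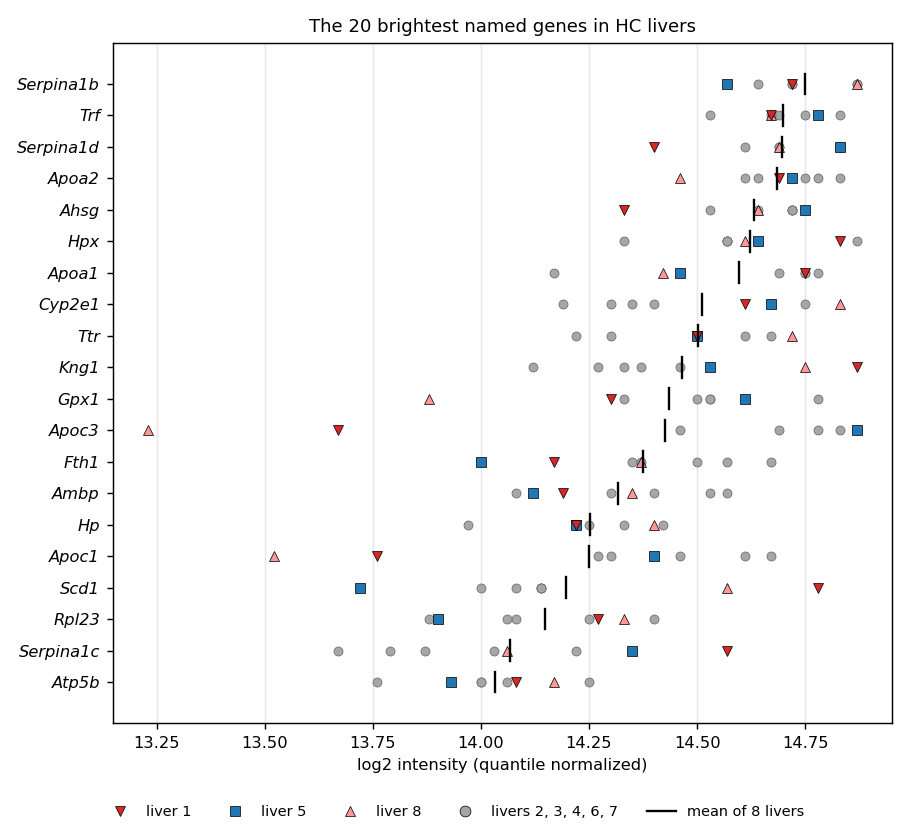
The log2 intensity of the 20 brightest genes (x axis) in each of the 8 HC livers (points, with livers 1, 5 and 8 marked) and their mean (bar), ordered by mean. Most rows span a narrow range, while Apoc3 and Apoc1 have livers 1 and 8 at the low end, Apoc3 at 13.67 and 13.23.

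By function, the highest median levels belonged to plasma protease inhibitors (12.58 over 16 detected genes), apolipoproteins (12.42 over 12), periportal hepatocyte genes (11.61 over 8) and cytosolic ribosomal proteins (11.45 over 15), against 6.60 over all detected genes. Plasma carriers and transport proteins followed at 11.35 (11 genes) and the acute phase genes at 11.21 (15). Complement and coagulation genes lay at 10.69 (23), cytochromes P450 of drug and steroid metabolism at 10.57 (22), enzymes and transporters of bile acids at 10.11 (14), fatty acid synthesis genes at 9.48 (11) and cholesterol synthesis genes at 6.59 (15). Within the last list Hmgcs1, which makes HMG-CoA in the step before HMG-CoA reductase, was at 11.81 ± 0.57 and Idi1, an isomerase of the isoprenoid steps, at 5.71 ± 0.53 (SD, n = 8). Cell cycle genes were low, with a median of 5.49 over 12 genes, of which Ccnd1 was the brightest at 10.13 ± 0.38. Since probes differ in brightness, these medians describe the probes of each list. They cover detected members only, which leaves out the dimmest. Detected were 15 of 18 measured acute phase genes, 14 of 16 of bile acids and 11 of 12 of fatty acid synthesis, where Fasn (fatty acid synthase) was not.

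Over the 8181 genes the SD between HC livers had a median of 0.34 on the log2 scale, with quartiles at 0.25 and 0.45. The SD exceeded 1 in 105 genes (1.28%) and was under 0.2 in 922 (11.3%). Level and spread were weakly related across genes (Spearman 0.27 over 8181 genes, which are not independent replicates). The median SD was 0.27 without livers 1 and 8. In the drug groups it was 0.34 (HC+RSV), 0.29 (HC+EZE) and 0.28 (HC+RSV+EZE). At the detection limit, the 363 genes detected on exactly 4 of 8 arrays had a median level of 4.67, and the 491 genes just outside, detected on 3 of 8, of 4.59.

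**Figure D2:**
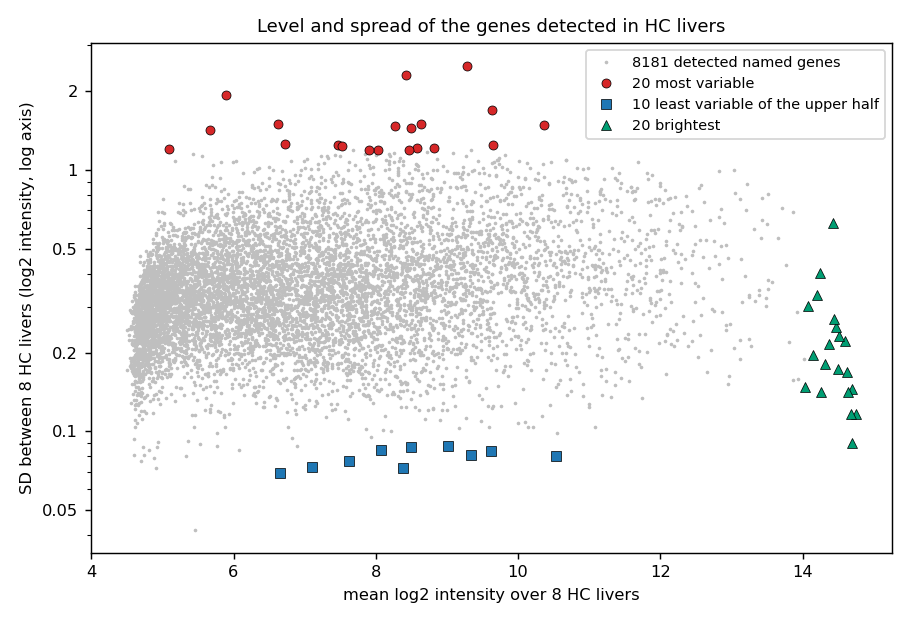
Mean log2 intensity over the 8 HC livers (x axis) and SD between them (y axis, log scale) for the 8181 detected genes (grey), with the 20 most variable, the 20 brightest and the 10 least variable of those whose mean exceeds the median. The most variable genes lie at levels between 5.10 and 10.36, and the brightest between 14.03 and 14.75.

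Glutathione-dependent and other detoxification enzymes led the most variable genes. Gsta1, a glutathione S-transferase that conjugates electrophiles, had log2 intensities of 7.12, 12.19, 8.18, 10.98, 4.60, 10.43, 9.64 and 11.09 in livers 1 to 8 (9.28 ± 2.50, SD, n = 8). It was lowest in liver 5, where it was the 1 value not detected, and highest in liver 2, a span of 191-fold. Cbr3, a carbonyl reductase, had 5.28 in liver 5, 6.02 in liver 1 and 6.25 in liver 3, and between 8.33 and 11.37 in the other 5 (SD 2.30), a span of 68.0-fold with liver 5 again lowest and liver 2 highest; its other probe correlated with it at 0.98. Gsta2, the closest relative of Gsta1 here, had 7.52, 12.07, 8.57, 10.42, 7.33, 10.82, 9.61 and 10.77 (SD 1.70).

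Gstm3, a glutathione S-transferase of the mu class, ran from 4.55 in liver 5 to 8.59 in liver 2 (SD 1.49). Gpx2, a glutathione peroxidase known best from the gut epithelium, ran from 4.37 in liver 3 to 8.32 in liver 2 (SD 1.42) and was detected in 5 of 8 livers. Ly6d, a surface protein, and Nupr1, a stress-induced nuclear protein, were highest in the same liver, at 10.68 and 10.13, and lowest in liver 1, at 6.73 and 5.94.

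**Figure D3:**
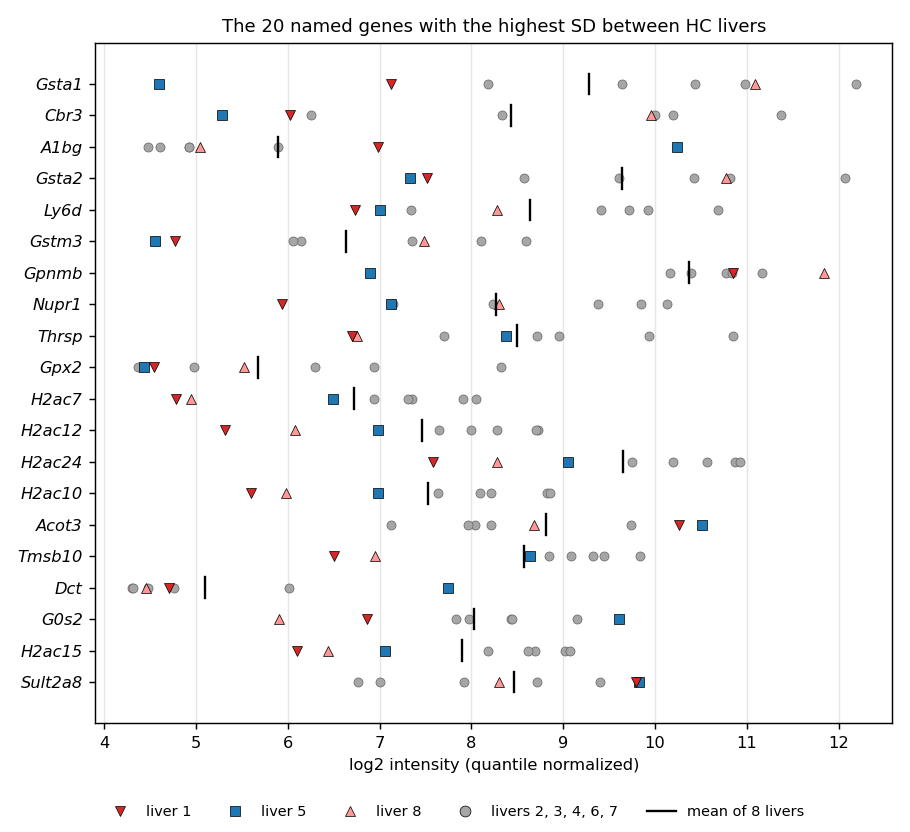
The log2 intensity of the 20 genes with the highest SD (x axis) in each of the 8 HC livers (points, with livers 1, 5 and 8 marked) and their mean (bar), ordered by SD. Liver 5 is lowest for Gsta1, Cbr3 and Gpnmb and highest for A1bg and Dct, while livers 1 and 8 are lowest for all 5 H2ac genes.

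The promoters of Gsta1 and Gsta2 are shown because these neighbouring paralogs followed each other across the livers. They are given as above, Gsta1 at chr9:78230419-78230718 (plus strand) and Gsta2 at chr9:78347096-78347395 (minus strand), with capitals again marking CCAAT on either strand.
Gsta1: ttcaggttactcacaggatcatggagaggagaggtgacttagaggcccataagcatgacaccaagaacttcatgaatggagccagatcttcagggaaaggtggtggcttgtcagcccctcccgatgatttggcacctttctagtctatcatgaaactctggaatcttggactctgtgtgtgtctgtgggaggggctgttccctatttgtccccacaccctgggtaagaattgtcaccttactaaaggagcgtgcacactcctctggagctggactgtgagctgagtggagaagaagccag
Gsta2: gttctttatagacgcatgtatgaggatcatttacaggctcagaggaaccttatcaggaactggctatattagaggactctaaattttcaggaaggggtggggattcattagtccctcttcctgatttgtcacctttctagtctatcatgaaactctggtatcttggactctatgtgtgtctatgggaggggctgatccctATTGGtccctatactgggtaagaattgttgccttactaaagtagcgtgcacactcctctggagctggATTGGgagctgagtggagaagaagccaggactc
The windows shared 151 of 295 aligned bases (51.2%), against 91 of 293 (31.1%) for the unrelated pair Gsta1 and Serpina1b. CCAAT was in the Gsta2 window, 50 bases before and 18 bases after the start, and not in that of Gsta1. The letters TGACNNNGC on either strand, the core of the antioxidant response element, were found in 1 of the 19 most variable genes with a promoter in the table (Acot3), against 12.5% of all 27025 promoters. The search covered 250 bases before and 50 bases after the start, so an element farther from the start would be missed. Probes of Gsta1 and Gsta2 may read one another's transcripts.

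These genes differed between the chips in the livers of the drug groups as well. In a limma F test of chip over the 24 drug-group livers, with group in the model, 1865 of 8853 genes (21.1%) passed an adjusted p of 0.05, and 1776 of the 8102 detected HC genes tested with the same probe (21.9%). Of the 20 genes most variable in HC 18 passed, and of the 100 most variable 46. Without HC+RSV replicate 3 and HC+EZE replicate 1, drug-group arrays that stand apart from the others, these counts were 18 and 65, against 29.4% of all genes. Chips were told apart by the array barcodes; the sources used here do not say which animals, extractions or labelling reactions shared a chip, so chip cannot be told apart from them.

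Gsta1 shows the pattern. Its chip estimates in the drug-group livers were 5.37 on chip 1, 7.59 on chip 3, 8.48 on chip 4 and 10.14 to 11.51 on chips 2, 5 and 6 (limma F test, adjusted p = 1.46e-05). HC liver 5 was on chip 1 and HC liver 2 on chip 5, the chips with the lowest and the highest estimate. With the drug-group chip estimates subtracted, 11% of the variance between HC livers was left. For Cbr3 12.8% was left (adjusted p = 3.83e-07), for Gsta2 and Gstm3 19.5% each (9.95e-07 and 3.83e-07 in the same test), for Gpx2 39.6%, for Nupr1 40.0% and for Ly6d 48.8%.

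Across all detected genes, subtracting the chip estimates left the median SD at 0.33, against 0.34 before. In an exact permutation test of the 8 HC values against the drug-group chip estimates, gene by gene, 0 of 8181 genes passed after Benjamini-Hochberg adjustment (0%; smallest adjusted p 0.155), and 1029 had an unadjusted p under 0.05, 11 of them among the 20 most variable genes and 20 among the 100. With 40320 arrangements and 2 chips that each held 2 HC livers, this exact p cannot fall below 9.92e-05, which was also the smallest p found. A single gene at that value could not pass over 8181 genes, so the count of 0 says little about whether HC livers followed chip. Both tests of chip were added after the data had been seen.

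**Figure D4:**
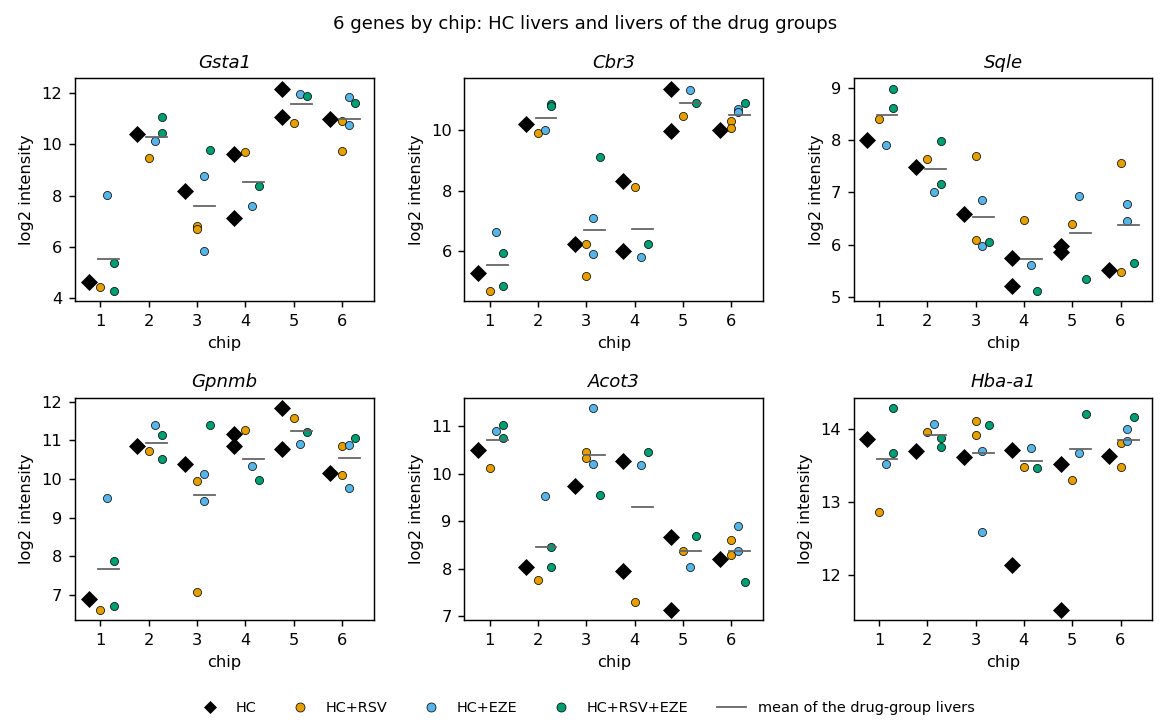
Log2 intensity (y axis) of 6 genes on each of the 6 chips (x axis) in HC livers (diamonds) and in livers of HC+RSV, HC+EZE and HC+RSV+EZE (circles; the line is their mean). On chip 1 the HC liver and 3 of the 4 drug-group livers are low for Gsta1, Cbr3 and Gpnmb, the HC+EZE liver of that chip being higher (8.02, 6.64 and 9.51), while Hba-a1 is low in HC livers 1 and 8, at 12.13 and 11.51, and not in the other HC livers of the same chips.

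Other highly variable genes were set apart by liver 5. Gpnmb, a membrane glycoprotein of lipid-laden macrophages, was at 6.90 in liver 5 and at 10.16 to 11.84 in the other 7 (SD 1.49, or 0.54 without liver 5). The drug-group livers on chip 1 were at 6.61, 9.51, 6.71 and 7.89, and 1 on chip 3 was at 7.08; the chip 1 estimate was 7.59, against 9.55 to 11.17 on the other chips (limma F test, adjusted p = 0.00177). After subtraction 15.2% of its variance was left. Its 3 other probes correlated with it at 0.47 to 0.96 and varied less, with SDs of 0.34 to 1.05. A1bg, a plasma glycoprotein of unclear function, was at 10.24 in liver 5, at 6.98 in liver 1 and at 4.48 to 5.89 in the rest (SD 1.94, or 0.88 without liver 5, with 57.3% of the variance left). Dct, an enzyme of melanin synthesis, was detected in 4 of 8 livers and was highest in liver 5 at 7.75, against 4.30 to 6.01 elsewhere (SD 1.21, or 0.59 without liver 5).

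Acot3, a peroxisomal acyl-CoA thioesterase, moved against the detoxification enzymes. Its values were 10.26, 7.13, 9.74, 8.21, 10.51, 8.04, 7.96 and 8.68 in livers 1 to 8 (SD 1.22), highest in liver 5 and lowest in liver 2, and 39.2% of the variance was left after the chip estimates (limma F test, adjusted p = 0.000353). Sult2a8, a sulfotransferase of the family that acts on steroids and bile acids, was likewise highest in liver 5 at 9.82 and lowest in liver 2 at 6.77 (SD 1.19; 49.0% left). Thrsp, a lipogenic protein that follows carbohydrate feeding and thyroid hormone, had 6.70, 7.70, 10.85, 8.71, 8.38, 8.95, 9.93 and 6.75 (SD 1.45). It was highest in liver 3 and lowest in livers 1 and 8, without which its SD was 1.13. With 97.4% of its variance left it followed the drug-group chip estimates little, although chip passed for it in those livers (limma F test, adjusted p = 0.0112).

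A second kind of spread came from livers 1 and 8. The 5 H2ac genes among the most variable (H2ac7, H2ac12, H2ac24, H2ac10 and H2ac15), which encode near-identical core histones H2A, had SDs of 1.19 to 1.25, and their probes may read one another's transcripts. H2ac12 had values of 5.32, 8.72, 7.65, 8.00, 6.98, 8.28, 8.70 and 6.08, so that livers 1 and 8 lay below the other 6. Without livers 1 and 8 the SDs of the 5 genes were 0.59 to 0.75. Tmsb10, an actin-binding thymosin, was at 6.50 and 6.95 in these livers and at 8.64 to 9.84 in the others (SD 1.21, or 0.43 without them). G0s2, an inhibitor of the triglyceride lipase Pnpla2, was at 6.86 and 5.91 against 7.83 to 9.61 (SD 1.20, or 0.69 without them). In the drug-group livers chip passed for H2ac12, H2ac24, H2ac10, H2ac15 and G0s2 (limma F test, adjusted p 0.00604 to 0.0449), not for H2ac7 or Tmsb10. Subtracting the chip estimates left 106% to 122% of the variance of the H2ac genes, 130% for Tmsb10 and 70.5% for G0s2.

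The promoters of H2ac12 and H2ac15 are shown since all 5 of these histone genes held CCAAT, as did all 17 H2ac genes of the promoter table. H2ac12 lies at chr13:22035594-22035893 (minus strand) and H2ac15 at chr13:21753863-21754162 (minus strand), with CCAAT on either strand in capitals.
H2ac12: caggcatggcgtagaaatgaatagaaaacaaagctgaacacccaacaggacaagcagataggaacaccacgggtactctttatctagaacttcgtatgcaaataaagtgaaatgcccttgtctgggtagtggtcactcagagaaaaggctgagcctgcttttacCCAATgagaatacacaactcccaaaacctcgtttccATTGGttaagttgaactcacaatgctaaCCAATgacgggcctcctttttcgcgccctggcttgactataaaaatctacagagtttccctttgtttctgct
H2ac15: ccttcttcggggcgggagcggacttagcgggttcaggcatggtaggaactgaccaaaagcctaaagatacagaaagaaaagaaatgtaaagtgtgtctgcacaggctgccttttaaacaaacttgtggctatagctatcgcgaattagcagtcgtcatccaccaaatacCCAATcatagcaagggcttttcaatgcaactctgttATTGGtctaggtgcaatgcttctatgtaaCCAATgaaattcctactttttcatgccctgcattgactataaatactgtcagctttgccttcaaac
In both windows CCAAT stood at 3 places before the start, 86, 50 and 22 bases before it in H2ac12 and 81, 45 and 16 bases before it in H2ac15, while the windows as a whole shared only 107 of 295 aligned bases (36.3%).

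Livers 1 and 8 held the lowest 2 values for 1290 of the 8181 genes (15.8%) and the highest 2 for 1634 (20%). Among the 100 most variable genes they were the lowest 2 for 65 and the highest 2 for 2. Genes lowest in these livers had a median genomic span of 7.75 kb and lay 0.96 below the other livers on the log2 scale (medians over genes), whereas genes highest in them spanned 31.8 kb and lay 0.65 above, against a span of 20.9 kb over all 8180 genes with coordinates. For the H2ac genes, Tmsb10 and Hba-a1, livers 7 and 2, on the same chips, lay with the other livers. What set these 2 livers apart was not tested.

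Among the gene lists, oxidative phosphorylation had the largest share of genes lowest in livers 1 and 8, against 15.8% of all detected genes. Of its 20 detected genes 17 had livers 1 and 8 lowest, and 15 were in the 10% of all genes with the highest SD; the list's median SD was 0.69 with these livers and 0.16 without. Ndufa1, a small subunit of complex I, was at 9.51 and 8.97 in livers 1 and 8 and at 10.95 to 11.72 in the others, while Atp5b, of the same list, was at 14.08 and 14.17 against 13.76 to 14.25. Of 15 cytosolic ribosomal protein genes 10 were lowest in the 2 livers, with a median SD of 0.63, or 0.32 without them; Rpl27 was at 10.05 and 10.09 against 11.57 to 12.36, and Rpl4 at 7.49 and 8.06 against 7.69 to 7.95.

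Of 12 apolipoprotein genes 5 were lowest in livers 1 and 8, against 15.8% of all detected genes. Among the 5 was Apoc2, the activator of lipoprotein lipase (7.12 and 7.05, against 8.39 to 9.37). Hba-a1, a hemoglobin alpha chain that marks red cells, was at 12.13 and 11.51, against 13.52 to 13.87. Among drug-group livers it was lowest in HC+EZE replicate 1 (12.59) and HC+RSV replicate 3 (12.86), the arrays that stand apart, against 13.31 or more. In the other direction, livers 1 and 8 were the highest 2 for 13 of 23 complement and coagulation genes, 8 of 16 protease inhibitors and 6 of 14 bile acid genes. Over all detected genes this share was 20%. Slco1b2, a hepatocyte uptake transporter for bile acids, was at 11.01 and 10.84 against 8.66 to 10.26, and Egr1, an immediate early transcription factor, at 11.80 and 11.16 against 8.52 to 9.78.

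**Figure D5:**
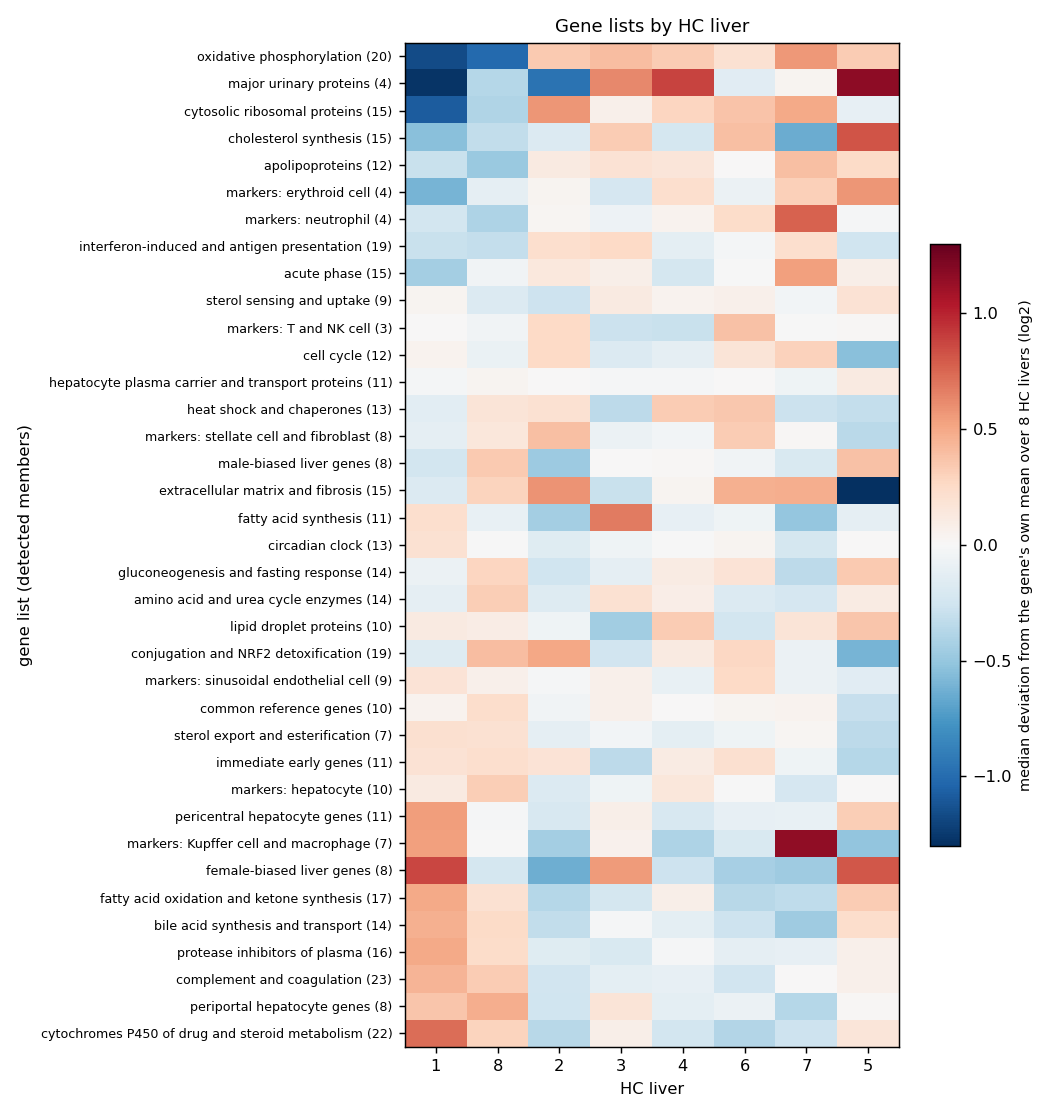
Median deviation, on the log2 scale, of the detected genes of each list (rows, with the number of genes) from each gene's own mean over the 8 HC livers (columns). Oxidative phosphorylation is low in livers 1 and 8, at -1.16 and -1.01, extracellular matrix low in liver 5 at -1.31, and Kupffer cell and macrophage markers high in liver 7 at 1.15.

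The most variable genes depended on livers 1 and 8 and on the measure of spread. Of the 100 with the highest SD, 40 were among the 100 of the other 6 livers, 43 among the 100 with the highest median absolute deviation and 13 among the 100 of the authors' deposited log2 values. Of the first 20, 13 were among the 100 of the 6 livers. Of those 100 most variable genes of the 6 livers, 90 passed the chip test in the drug groups, against 21.1% of all genes.

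Many of these genes were also among the most variable in the drug groups. Of the 100 most variable in HC, 37 were among the 100 most variable of the HC+RSV livers, 46 among those of HC+EZE and 33 among those of HC+RSV+EZE, where a list of 100 is 1.22% of the genes. Gsta1 and Cbr3 held the first 2 ranks in all 3 drug groups, with SDs of 2.18 to 2.89 and 2.35 to 2.60. G0s2 had SDs of 0.52 to 0.63 there, against 1.20 in HC, or 0.69 in HC without livers 1 and 8. In the test of spread between HC and the drug groups 0 of 8853 genes passed. The groups share the 6 chips.

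Lipid synthesis genes differed between chips. Of 15 detected cholesterol synthesis genes 13 passed the chip test in the drug groups, and all 11 of fatty acid synthesis, against 21.1% of all genes; their median SDs in HC were 0.66 and 0.58. Sqle (squalene epoxidase, which starts the sterol-forming steps) had values of 5.75, 5.85, 6.58, 5.51, 7.99, 7.48, 5.20 and 5.97 in HC livers 1 to 8 (SD 0.99). It was highest in livers 5 and 6, on chips 1 and 2, where the drug-group estimates were also highest at 8.57 and 7.54 (limma F test, adjusted p = 0.000531), and 10.6% of its variance was left. The cholesterol synthesis list as a whole was 0.82 above its mean in liver 5 and 0.65 below it in liver 7 (medians over genes, log2).

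Matrix and detoxification lists ran the other way on chip 1. Of 15 detected extracellular matrix genes 10 were in the 10% of all genes with the highest SD, and 12 of the 14 tested passed for chip. Col3a1, a fibrillar collagen, was at 4.62 in liver 5 and at 6.16 to 7.50 in the others. The summed intensity of the list ran from 4693 in liver 5 to 13615 in liver 8. The conjugation and NRF2 list, the latter being the transcription factor that induces such enzymes, ran from 27790 in liver 5 to 77284 in liver 2; 12 of its 19 genes passed for chip, where 21.1% of all genes did. Sult1a1, a phenol sulfotransferase of the same list, stayed between 11.57 and 11.98. In the drug-group livers of chip 1, the medians of the matrix and conjugation lists were 0.95 and 0.53 below their means.

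Major urinary proteins and sex-biased genes also differed between livers. Mup20, known as the male pheromone darcin, was detected in all 8 female livers, from 10.29 in liver 2 to 13.16 in liver 5 (SD 1.07); its probe may read other members of this near-identical family. Of 8 detected female-biased genes 6 passed the chip test and of 8 male-biased genes 3, against 21.1% of all genes. Cyp2b9, a female-biased cytochrome P450, was at 10.92 to 12.30, and Cyp3a41a, another, was detected in 6 of 8 livers and at 7.59 in liver 5, against 4.29 to 5.69 in the others.

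The summed signal of macrophage markers was highest in liver 7. The summed intensity of the 7 detected Kupffer cell and macrophage markers ran from 4929 in liver 5 to 15542 in liver 7, and 3 of the 7 passed for chip, against 21.1% of all genes. Clec4f was as high in liver 1 as in liver 7, at 10.56 in both. The summed intensity of the 4 detected neutrophil markers was highest in liver 7 too, at 731, with a median of 359 over the 8 livers; their part was not tested. C1qa, a chain of complement C1q made by macrophages, was at 9.18 in liver 7 and at 6.23 to 8.21 in the others. Saa3, an acute phase gene that macrophages also express, was at 8.29 in liver 7, against 5.05 to 7.02 elsewhere. Clec4g, of sinusoidal endothelium, was by contrast at 11.18 to 11.63 in all 8.

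Among genes detected on all 8 arrays with a mean above the median, the 10 least variable had SDs of 0.069 to 0.088. They were Polr3b (a subunit of RNA polymerase III), Ilkap (a phosphatase that binds integrin-linked kinase), Kctd20, Ilf2 (an RNA-binding protein), Aup1 (of the endoplasmic reticulum and lipid droplets), Lias (lipoic acid synthetase), Nap1l4 (a histone chaperone), Ulk1 (a kinase that starts autophagy), Tfg (of export from the endoplasmic reticulum) and Hdgfl2. Other detected probes of Kctd20, Lias, Ulk1 and Aup1 had SDs of 0.42, 0.32 to 0.39, 0.27 and 0.23, and that of Aup1 correlated at -0.39. The other genes named had no second detected probe, so the low SDs are those of single probes. Polr3b ranged from 6.54 to 6.73, a span of 1.15-fold. This order held only in part elsewhere: 4 of the 10 were in the lowest 10% by SD of such genes among HC+RSV livers, 7 among HC+EZE and 3 among HC+RSV+EZE livers, and Polr3b had SDs of 0.19 to 0.27 there. Of 10 detected genes in common use as references, Gapdh (SD 0.21) varied least and Eef2 (SD 0.79, highest in livers 1 and 8 at 11.59 and 11.03) most.

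Of 12 gene pairs with known shared regulation or cell type, 8 had both members detected. The pairs were chosen with earlier results of these data known, which their p-values do not take into account. Clec4f and Vsig4, both of Kupffer cells, were correlated over the 8 HC livers (Pearson r 0.88, exact permutation p = 0.00352, Benjamini-Hochberg adjusted over 8 pairs 0.0282; Spearman rho 0.81, exact p = 0.0218). With livers 1 and 7, the farthest from the median, left out, r was 0.67; with livers 1 and 8 left out it was 0.88 with an adjusted p of 0.183 (exact permutation test). With chip estimates subtracted it was 0.91 (adjusted p = 0.00119). In the 24 drug-group livers r was 0.68 (permutation test, adjusted p = 0.00109).

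For Ndufb5 and Cox7b, of complexes I and IV, r was 0.96 (exact permutation test, adjusted p = 0.0581), 0.01 without livers 1 and 8 and 0.99 with chip estimates subtracted (exact, adjusted p = 0.00169); in the drug-group livers it was 0.66. For Sqle and Idi1 r was 0.78 (exact permutation test, adjusted p = 0.0581) and 0.13 with chip estimates subtracted. Cyp7a1, which controls the first step from cholesterol to bile acids, and Cyp8b1, which sets the share of cholic acid, gave r 0.72 (exact permutation test, adjusted p = 0.0845), which passed with chip estimates subtracted (0.80, exact, adjusted p = 0.0271). The other 4 (Sqle and Insig1, Dbp and Ciart, Pck1 and G6pc, Mt1 and Mt2) gave 0.22 to 0.47 and did not pass. With chip estimates subtracted Pck1 and G6pc gave 0.81 and Mt1 and Mt2 0.80, which passed (exact permutation test, adjusted p = 0.0271 for each). The estimates came from the drug-group livers, where these pairs also correlated (r 0.59 and 0.70). Subtraction raised the variance between HC livers to 175% for Pck1, 116% for G6pc, 223% for Mt1 and 185% for Mt2. Correlation after subtraction may thus be carried over from the drug-group livers, and its p-values do not measure HC livers alone. The same limit holds for the other pairs with chip estimates subtracted. In the 24 drug-group livers 7 of the 8 pairs passed, all but Cyp7a1 and Cyp8b1.

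Against the mean of the 3 drug groups, 0 of 8853 genes differed in level in the HC livers (limma, 0% higher and 0% lower in HC at an adjusted p of 0.05), with 375 at an unadjusted p under 0.05, 357 of them detected HC genes. The smallest adjusted p belonged to Ciart, a repressor of the circadian clock, at 5.46 ± 0.39 in HC (SD, n = 8) and at 5.54 (HC+RSV), 7.15 (HC+EZE) and 7.24 (HC+RSV+EZE) (limma, difference -1.18 ± 0.23 SE, adjusted p = 0.0861). Insig2, which holds the sterol sensor in the endoplasmic reticulum, had the same adjusted p. It was at 10.72 ± 0.24 in HC and at 10.53, 9.79 and 9.70 in the 3 drug groups in that order (0.71 ± 0.14 SE).

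The Insig2 difference was positive on each of the 6 chips, between 0.47 and 0.97, and Insig2 was the 1 gene that passed with chip as a fixed block (limma, adjusted p = 0.0233) or random block (0.0283). HC arrays lay at the first position of each chip, and also at the second on chips 4 and 5, and drug-group arrays lay after them, so position ran with group. With position as a covariate the Insig2 difference was -0.28 and that of Ciart was 0 to 2 decimals. The part of position in these differences was not tested.

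In spread between livers, 0 of 8853 genes differed between HC and the drug groups (limma on absolute deviations, 0% at an adjusted p of 0.05; smallest adjusted p 0.284), with 881 at an unadjusted p under 0.05 (9.95%), or 414 without livers 1 and 8.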

How the data were processed

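Liver RNA of 32 mice was measured on bead arrays, 1 liver per array, from 500 ng of total RNA per the labels' protocols; the labels speak of further samples, not analysed here. The authors deposited intensity values of 25697 probes that had not been normalized and held a background subtraction, as values from -22.1 to 43208.4 show. The authors deposited with them detection values, each a fraction between 0 and 1. The authors deposited log2 values of 15505 of 25697 probes in a second table, for which the submitters' processing notes name limma; the sources used here do not give the choice of probes. The number of arrays limits the precision.

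Background was modelled with limma's normexp method from 1 minus the detection value, with an offset of 16, followed by quantile normalization over the 32 arrays and log2 (limma 3.58.1 in R 4.3.3; scipy 1.17.1 in Python 3.11.15). Symbols came from the platform annotation, updated through Entrez IDs for 14548 of 14557 named probes; 11140 probes were not named. The brightest probe stood for each gene, 2092 genes having more than 1 detected. Level and spread in HC were tested against the 3 drug groups with lmFit and eBayes over 8853 genes detected on at least 8 of the 32 arrays, with Benjamini-Hochberg adjustment and a threshold of 0.05; spread was tested on absolute deviations from the group mean. Gene pairs were tested by exact permutation over 8 livers and by 100000 permutations over 24. The programs were tested on simulated data. Each liver is a separate animal per the labels, and p-values therefore cover the spread of animals together with arrays and, unless stated, chips.

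Samples with the same replicate number in different groups correlated at 0.175 on average in their deviations from the group means, with 30 of 48 pairs over 0.1. Samples of one chip in different groups correlated at 0.295, and those sharing neither chip nor number at -0.079. Same-numbered HC+RSV and HC+EZE samples lay on the same chip, so number and chip cannot be fully told apart. The numbers were not taken to pair the samples, and a replicate block was run as an alternative.

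The genes named are the 20 brightest, the 20 most variable, the 10 least variable of those detected on all 8 HC arrays with a mean above the median, the pairs, cell type markers and up to 4 members of each list (brightest, dimmest, most and least variable). Members, lists and pairs were chosen with earlier results of these data known. Alb and C1qa are markers, and Fasn is a measured list member that was not detected. Insig2, Mtnr1a and Cd302 in the comparison with the drug groups were named after their values were seen. The alternatives tried are given in the closing section; the tests of chip were added after the data had been seen.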

Additional observations from a re-analysis of the deposited data

Results flagged for a closer look

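The highest or lowest HC liver stood clear of the other 7 in 3 of 67 sets of 8 values checked, by Dixon's test, in which the gap to the nearest value is divided by the whole range and compared with 0.526. Chance gives about 1 in 20 such sets. Hp, the hemoglobin scavenger haptoglobin, was at 13.97 in liver 3 and at 14.22 to 14.42 in the others. A1bg was at 10.24 in liver 5 and at 4.48 to 6.98 in the others. Gpnmb was at 6.90 in liver 5 and at 10.16 to 11.84 in the others; the 4 drug-group livers on the same chip were at 6.61, 9.51, 6.71 and 7.89.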

How the results depend on the processing

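The count of genes whose level in HC differed from the drug groups was 0, and was 1, Insig2, in 5 settings: chip as a fixed block, chip as a random block, array weights, a replicate block, and chip as a fixed block without the 4 arrays that stand apart (HC replicates 1 and 8, replicate 3 of HC+RSV and replicate 1 of HC+EZE). With array position as a covariate the Insig2 difference was -0.28, and the cause was not tested. The count for spread was 0, and was 1 with no filter on detection (Mtnr1a, adjusted p = 0.0173 by limma) and 1 with a replicate block (Cd302, 0.00591); leaving out single HC livers gave 0 for both counts. The block changed no other call. Scaling to equal medians moved the median difference of all genes in level to 0.11.

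The median SD between HC livers, 0.34, was 0.49 in the authors' deposited values, 0.42 with equal medians, 0.30 with no filter on detection, 0.26 with no background correction, 0.23 with an offset of 50 and 0.27 without livers 1 and 8; leaving out 1 HC liver gave 0.31 to 0.34. Of the 100 most variable genes, 13 remained in the authors' values, 43 by median absolute deviation and 40 without livers 1 and 8, and 70 to 96 when 1 liver was left out. Of the 100 brightest, 90 to 100 remained in every setting run.

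The number of gene pairs that passed, 1, was 0 by Spearman, 5 with chip estimates subtracted (Clec4f and Vsig4, Ndufb5 and Cox7b, Cyp7a1 and Cyp8b1, Pck1 and G6pc, Mt1 and Mt2), 2 with cyclic loess or equal medians, 3 with no background correction or an offset of 50, 0 without livers 1 and 8 and 0 to 2 when 1 liver was left out. The pair Mt1 and Mt2 changed sign without replicate 1 (-0.09) and without livers 1 and 8 (-0.28), and Pck1 and G6pc with equal medians (-0.07) and without replicate 2 (-0.02); none of these 4 values passed. Over single livers left out, the first pair ran from -0.09 to 0.47 and the second from -0.02 to 0.46. With chip estimates subtracted they were 0.80 and 0.81 and passed. Those estimates came from the drug-group livers, so the 5 passes after subtraction may carry over correlation from there. Dim probes carry little signal over background, so spread near the detection limit is imprecise.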

Other observations

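Clock genes varied moderately between HC livers, with a median SD of 0.46 over 13 detected genes against 0.34 over all genes, and 1 of the 13 passed the chip test in the drug groups, against 21.1% of all genes. Dbp, a clock output factor, was at 9.98 to 11.27. Irs2, an insulin receptor substrate that rises in fasting, was at 5.68 in liver 7 and at 7.09 to 9.03 in the others (SD 1.04), and Pck1, an enzyme of glucose synthesis, was lowest in the same liver at 5.78, against 6.38 to 7.83. Isg15, an interferon-induced ubiquitin-like protein, was highest in livers 7 and 2, at 7.52 and 7.15, and lowest in livers 1 and 8, at 4.45 and 4.70.

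Abcg5 and Abcg8, the subunits of the transporter that exports cholesterol into bile, were highest in livers 8 and 1. Abcg5 was at 12.26 and 11.99 in these livers, against 10.93 to 11.92 in the others, and Abcg8 at 11.69 and 11.90 against 10.06 to 11.17. Cdk1, a cell cycle kinase, was lowest in liver 5 at 4.29, against 5.16 to 6.62, and passed the chip test in the drug groups (limma F test, adjusted p = 0.000247). Acot1, a cytosolic acyl-CoA thioesterase, was highest in liver 5 at 10.37, against 6.91 to 9.38, and passed it too (1.36e-05).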
